A study of Mus musculus with 6 samples.

Results

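The cytosolic ribosomal protein genes were measured in 3 sorted populations of intraepithelial lymphocytes (IEL), T cells that lie between the epithelial cells of the mouse small intestine. They were taken as every probe set of the array whose single annotated symbol was Rpl or Rps followed by a number and at most 1 letter, or Rplp0, Rplp1, Rplp2 or Rpsa. S6 kinase genes, which begin with Rps6k, were left out. This gave 47 of the 12488 probe sets, for 33 genes: 21 probe sets of 16 genes for the large subunit and 26 of 17 genes for the small subunit. The populations were TCRab CD8aa, TCRab CD8ab and TCRgd CD8aa, named for the antigen receptor and the form of CD8 on the cell, and the titles of the TCRgd arrays write TCRgb. All cells were freshly isolated and untreated, from C57BL/6 mice less than 8 weeks old. In each of 2 experiments the 3 populations were sorted from 1 pool of 20 mice and each was put on 1 Affymetrix array, so n = 2 pools per population. The deposited values are MAS5 signals, a brightness in linear units that cannot be compared between probe sets.

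Each cytosolic ribosome has a large and a small subunit, built from ribosomal RNA and 1 copy of nearly every ribosomal protein, so the genes are usually expressed together. The small subunit reads the messenger RNA, and the large subunit joins the amino acids. Ribosomal protein messenger RNAs are known for a terminal oligopyrimidine (TOP) start, a C at the first base followed by a run of C and T, through which mTOR signalling controls their translation. Making ribosomes is a main cost of T cell growth and division.

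Start sites are shown because the TOP run is a shared feature that the choice of members did not use. RefSeq start sites on build GRCm38.p6 were matched by symbol for 26 of the 33 genes. The 30-base windows run from 15 bases before the annotated start through the 15 bases from it on, on the transcribed strand, and capitals mark the pyrimidine run. In Rps10 (chr17:27635230-27635259, minus strand), Rps18 (chr17:33955651-33955680, minus strand) and Rps27 (chr3:90213634-90213663, minus strand) the annotated start is a C inside the run. In Rpl7a (chr2:26910792-26910821, plus strand) the run covers the start from further upstream, and in Rpl13a (chr7:45128731-45128760, minus strand) it begins just after it. The capitals of Rpl7a begin 10 bases before the start, where the search ended, although C and T continue upstream of them. The run of Rpl13a is 14 bases long and passes the end of the window. Rps7 (chr12:28635939-28635968, minus strand) had only a short run downstream.
Rps10: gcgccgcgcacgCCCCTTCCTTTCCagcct
Rps18: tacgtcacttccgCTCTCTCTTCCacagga
Rps27: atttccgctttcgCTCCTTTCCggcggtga
Rpl7a: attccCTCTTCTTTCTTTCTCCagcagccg
Rpl13a: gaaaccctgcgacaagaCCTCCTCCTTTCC
Rps7: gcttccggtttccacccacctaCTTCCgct
A run was defined as a C followed by at least 4 pyrimidines (C or T), on the transcribed strand alone. An annotated start that was itself such a C was found in 5 of the 26 genes (19.2%), against 3.01% of all 27025 genes of the promoter table. A run within 10 bases of the start was found in 17 of the 26 (65.4%), against 34.4% of all genes. Of the large subunit genes 10 of 13 had one, of the small subunit genes 7 of 13, and of the 69 mitochondrial ribosomal protein genes 44.9%, with none exactly at a start. These are matches of letters at annotated starts, and no start site was measured.

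Mean signals were above 500 for 22 of the 47 probe sets and at most 320.7 for the rest. After the filter on dim probe sets, which asks for at least 2 arrays above a signal of 56.4, 33 probe sets of 26 genes were tested, 15 of the large and 18 of the small subunit. Their mean signals over the 6 arrays ran from 35.8 to 35189.6. The 14 probe sets that were not tested had means of 8.08 to 55.1, and were those of Rpl32, Rpl35a, Rpl39, Rps15, Rps20 and Rps27l, both of Rpl38, 4 of the 5 of Rps4x, and 1 each of Rpl7 (97697_at) and Rps29 (162335_at). A low signal on such a probe set does not show a low level of the gene, since the other probe set of Rps4x was among the bright ones. Signals under 15.3 were set to that floor, which among the tested probe sets touched Rpl39l on 1 array and Rps14 on 2. Most of the 14 that were not tested also had arrays at the floor. The probe set 97696_r_at of Rps24 comes from the same source sequence as 97695_s_at, which is annotated as Rpl7, so its gene is uncertain. Another 38 probe sets carry several symbols with a ribosomal protein among them, often copies of the same gene, and were not members.

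Ratios of 3′ to 5′ signal, often read as a sign of RNA quality, differed between the experiments. Control probe sets at both ends of the beta-actin message gave a 3′/5′ ratio of 1.41 to 1.76 on the arrays of experiment 1 and of 40.4 to 52.2 on those of experiment 2. For Gapdh the ratios were 3.38 to 5.20 and 22.3 to 29.6. Of the T cell markers 10 of 13 were on the array, with summed signals of 60112 to 101742. Cd8b1, the chain that defines CD8ab, read 17647 and 27592 in TCRab CD8ab against 28.1 to 763 on the other arrays. Summed signals of 11 enterocyte markers were 26610 on the second TCRgd CD8aa array (Fabp1 read 5134 and Krt20 6706) and 1160 to 2490 on the other arrays. Not every enterocyte marker was raised there: Cdh1 read 209 (168 to 268 elsewhere), Krt18 91.4 (up to 91.1) and Epcam 694 (up to 617). The 2 Paneth and goblet cell markers summed to 3712 there and to 157 to 409.6 elsewhere. Markers of other cells were also raised on that array. Jchain of plasma cells read 4023 (61.8 to 678 elsewhere), Lyz2 303 (up to 11.4), and mast cell markers summed to 700 (47.1 to 154.5). The sum of the B and plasma cell markers, 7505, was within the range elsewhere (2327 to 9782). The medians for TCRgd CD8aa and the call for Rps19 are therefore also given without that array, and the part of RNA from epithelial and other cells in the other TCRgd CD8aa values was not tested.

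**Figure D1:**
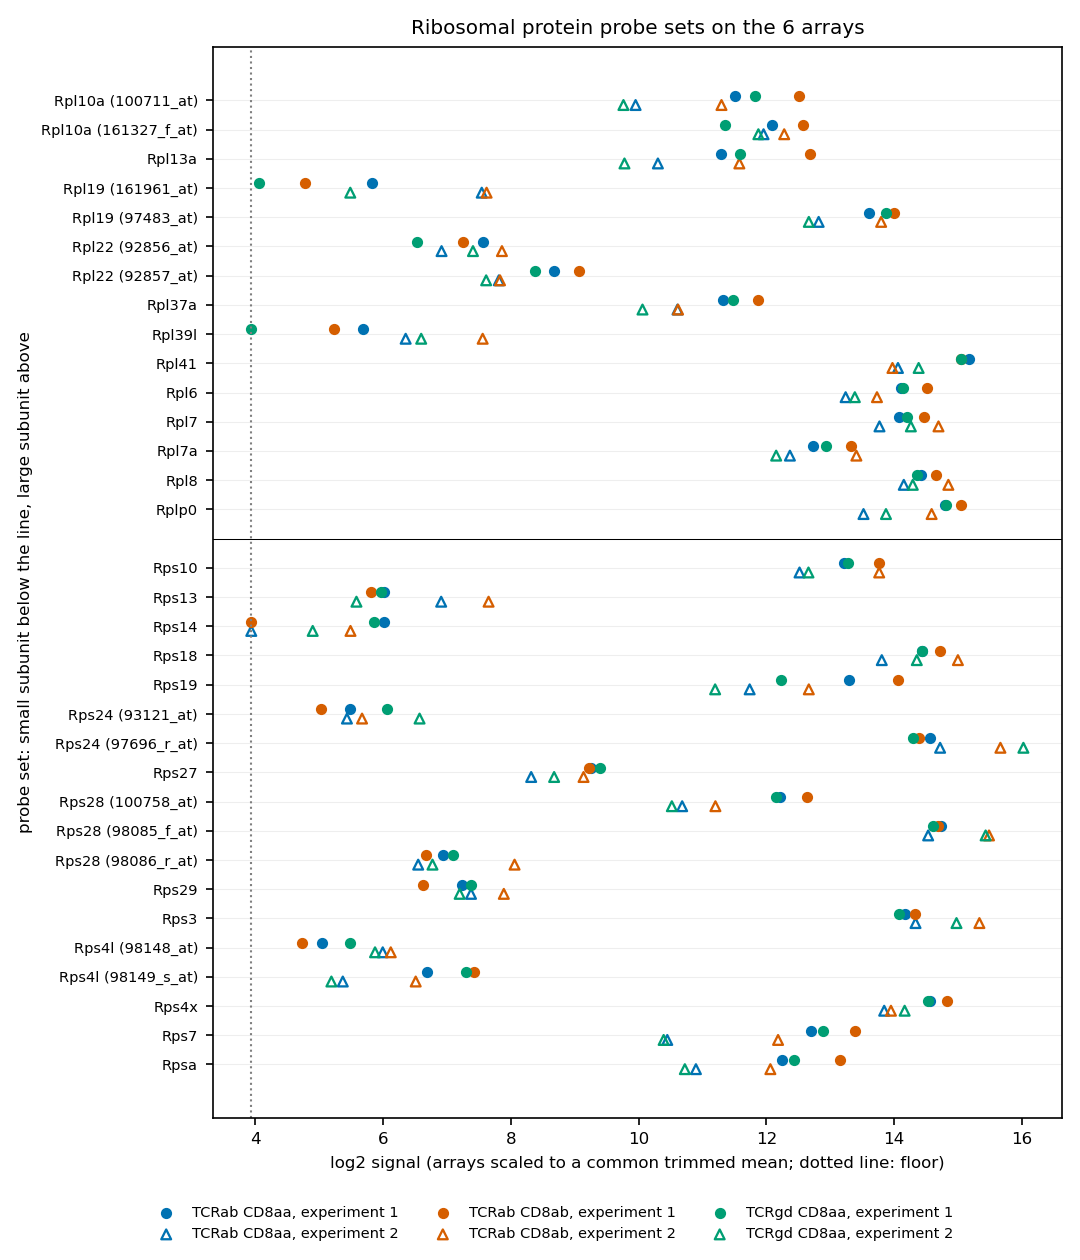
Log2 signal of the 33 tested probe sets (rows) on the 6 arrays, with large subunit members above the line and small subunit members below it; circles are experiment 1, triangles experiment 2, colours the 3 populations, and the dotted line is the floor. In experiment 2 the TCRab CD8ab triangle is the rightmost of the 3 in 29 of the 33 rows. Over all tested probe sets the median against TCRab CD8ab was there −0.20 in TCRab CD8aa and −0.17 in TCRgd CD8aa.

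Ribosomal protein signals tended to be highest in TCRab CD8ab, and no member passed the test without a term for the experiment. TCRab CD8ab was the highest of the 3 populations in both experiments for 19 of the 33 tested members (57.6%), against 18.3% of all 8299 tested probe sets. It was highest for 20 of 33 in experiment 1 and for 29 of 33 in experiment 2, shares not counted over all probe sets. The medians of all probe sets against TCRab CD8ab were 0.018 in TCRab CD8aa and 0.027 in TCRgd CD8aa in experiment 1. In experiment 2 they were already −0.20 and −0.17. A limit of 500 on the mean signal was chosen after the values were seen. TCRab CD8ab was highest in both experiments for 17 of the 22 members above it and for 2 of the 11 dimmer ones. The shares over all probe sets above and below this limit were not counted, so the part of brightness in this was not tested. The summed signal of the 47 probe sets was 3.94% and 3.60% of the array in TCRab CD8ab, 3.27% and 2.29% in TCRab CD8aa, and 3.20% and 2.82% in TCRgd CD8aa. Both of the first values lie above all 4 others. The beta-actin 3′/5′ ratio of TCRab CD8ab was the lowest of the 3 in experiment 1 (1.41) and the highest in experiment 2 (52.2), and its Gapdh ratio lay between those of the others in both (3.58 and 23.6). In sorted bulk samples, fewer cells that carry a message and less of it per cell cannot be told apart.

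In TCRab CD8aa the median difference from TCRab CD8ab was −0.45 on the log2 scale, a 1.37-fold lower signal, against −0.078 over all tested probe sets. It was −0.26 in experiment 1 and −0.94 in experiment 2, and −0.45 for the large and −0.46 for the small subunit. Without the TCRab CD8ab array of experiment 2 the subunits gave −0.78 and −0.26, and without the TCRab CD8aa array of experiment 1 −0.64 and −0.82. Medians between populations with 1 array left out, here and below, have no term for the experiment. A population left with 1 array is then set against both arrays of the other, so the difference between experiments enters. Of the 33 members 20 were lower in both experiments (30.1% of all probe sets) and 1, Rpl41, was higher in both (22.9%). For 8 members both TCRab CD8aa arrays lay below both TCRab CD8ab arrays (12.8% of all probe sets), and for none above (10%). Scaling the arrays to equal medians moved the median of all probe sets by 0.21, to 0.13, and that of the members to −0.25. Quantile normalization gave −0.24 for the small subunit. Relative to all probe sets the members were at −0.37 in the main scaling and −0.38 with equal medians. Without the TCRab CD8aa array of experiment 1 the members' median was −0.73.

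TCRgd CD8aa was compared with the same TCRab CD8ab arrays, so these values are not independent of those of TCRab CD8aa. The median difference was −0.47, or 1.39-fold lower, against −0.059 over all probe sets. It was −0.30 in experiment 1 and −0.64 in experiment 2, and −0.59 for the large and −0.37 for the small subunit, where it was −0.11 without the TCRab CD8ab array of experiment 2. Of the 33 members 23 were lower in both experiments (28.7% of all probe sets) and 2, Rpl41 and Rps24 (93121_at), higher in both (22.9%). For 7 both arrays lay below both of TCRab CD8ab (10.4%), and for 1, Rps24 (93121_at), above (9.39%). Without the array that held the enterocyte signal the median was −0.22, with −0.38 and −0.18 for the large and small subunits. That sets TCRgd CD8aa of experiment 1 against TCRab CD8ab of both experiments, so the difference between experiments enters. Within experiment 1, where that signal was not raised, the median was −0.30, with −0.39 for the large and −0.11 for the small subunit. There 25 of 33 members were lower, and the median of all probe sets was 0.027. These medians cover only members that passed the filter. Over the 14 that did not, the medians were −0.24 for TCRab CD8aa and −0.090 for TCRgd CD8aa, and 1 of 14 was highest in TCRab CD8ab in both experiments. Most of these 14 had at least 1 array at the floor. The probe set 162229_at of Rps4x was there on all 6, so its differences were 0.

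**Figure D2:**
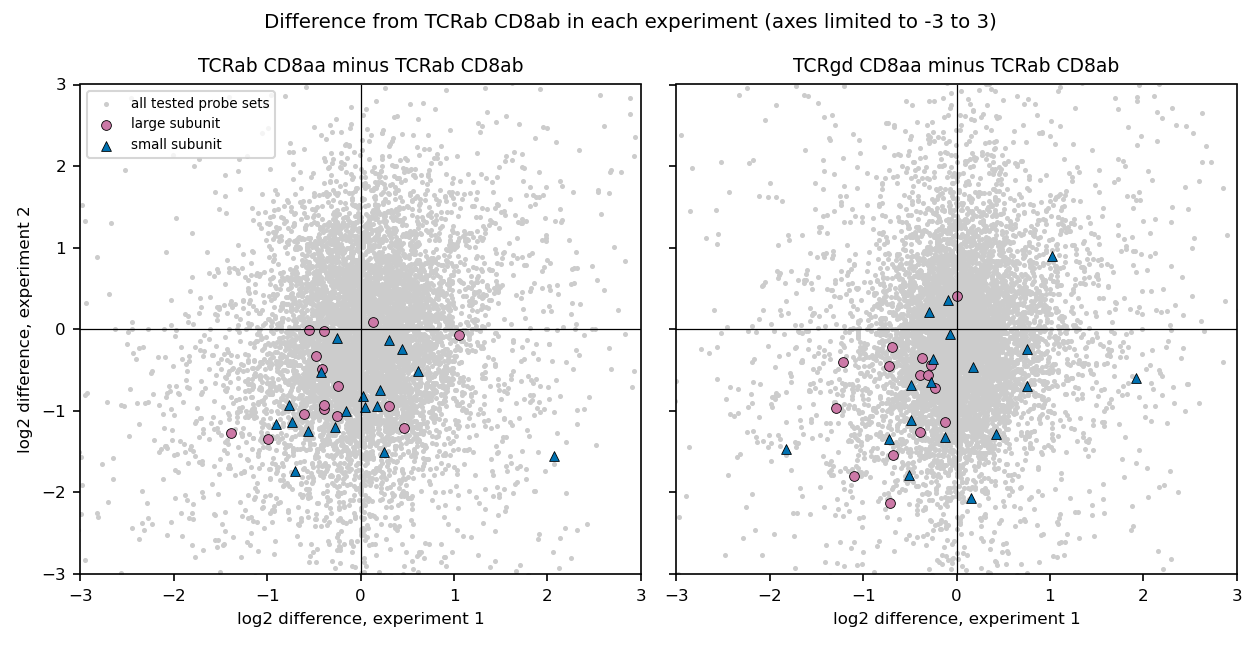
Log2 difference from TCRab CD8ab in experiment 1 (horizontal) and experiment 2 (vertical) for TCRab CD8aa on the left and TCRgd CD8aa on the right; grey points are all 8299 tested probe sets, circles large and triangles small subunit members, and both axes stop at 3 log2 units. The lower left field, lower in both experiments, holds 20 of the 33 members on the left and 23 on the right.

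Tests were run with limma over all 8299 probe sets, and adjusted p-values are Benjamini-Hochberg over these. Without a term for the experiment, limma called 0 members and 0 probe sets in any of the 3 comparisons, and 0 members had an unadjusted p under 0.05 (2.25%, 2.02% and 0.41% of all probe sets in the order TCRab CD8aa against TCRab CD8ab, TCRgd CD8aa against TCRab CD8ab, and TCRgd CD8aa against TCRab CD8aa). The populations of 1 experiment come from the same pool, and a block for the experiment let limma call 1 member, Rps19, which fell in TCRgd CD8aa. The block fit called 18 of all probe sets lower there (0.217%) and 28 higher (0.337%). In TCRab CD8aa it called 0 members, and 25 of all probe sets lower (0.301%) and 43 higher (0.518%). Its unadjusted p was under 0.05 for 7 members in TCRab CD8aa and 8 in TCRgd CD8aa, all lower, against 5.58% and 4.37% of all probe sets. Differences below are log2 values with the standard error (SE) of the block fit, which is the same for a probe set in every comparison of populations. With the block the p-values measure how far the differences between populations varied between the 2 pools. Without it they also take in the spread between the pools. Neither measures the spread between mice.

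Large subunit members are taken first. Rpl13a, a protein also known to leave the ribosome and silence inflammatory messenger RNAs, had signals of 6569 in TCRab CD8ab, 2512 in TCRab CD8aa and 3078 in TCRgd CD8aa in experiment 1, and 3052, 1261 and 878 in that order in experiment 2. Both TCRab CD8ab arrays lay above both of TCRab CD8aa, whereas TCRgd CD8aa overlapped them by 1 array. The difference was −1.33 ± 0.31 in TCRab CD8aa, or 2.52-fold lower, and −1.45 ± 0.31 in TCRgd CD8aa, or 2.72-fold lower. Adjusted p was 0.132 and 0.126 with the block, and the SE without it was 0.79. Rpl10a, a protein of the L1 stalk from which the spent transfer RNA leaves, had 2 probe sets. Signals of 100711_at were 5802 in TCRab CD8ab, 2925 in TCRab CD8aa and 3619 in TCRgd CD8aa in experiment 1, and 2515, 990.1 and 868 in that order in experiment 2. Those of 161327_f_at were 6098 in TCRab CD8ab, 4373 in TCRab CD8aa and 2622 in TCRgd CD8aa in experiment 1, and 4966, 3969 and 3752 in that order in experiment 2. On both probe sets TCRab CD8ab was highest in each experiment. For 100711_at the differences were −1.17 ± 0.31 in TCRab CD8aa and −1.11 ± 0.31 in TCRgd CD8aa, with adjusted p of 0.197 and 0.283. For 161327_f_at they were −0.40 ± 0.31 and −0.81 ± 0.31, with adjusted p of 0.705 and 0.516.

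Rpl7a, a conserved protein of the large subunit, read 10284 in TCRab CD8ab, 6752 in TCRab CD8aa and 7846 in TCRgd CD8aa in experiment 1, and 10867, 5282 and 4551 in that order in experiment 2. Both TCRab CD8ab arrays were above the other 4. The differences were −0.82 ± 0.31 in TCRab CD8aa and −0.82 ± 0.31 in TCRgd CD8aa, about the same size, with adjusted p of 0.428 and 0.512. Rplp0, the base of the stalk that takes up elongation factors, read 33893 in TCRab CD8ab, 28414 in TCRab CD8aa and 28851 in TCRgd CD8aa in experiment 1, and 24582, 11738 and 14981 in that order in experiment 2. TCRab CD8ab was again the highest in each experiment, but the groups overlapped, since all arrays of experiment 1 were above those of experiment 2. Its differences were −0.66 ± 0.32 and −0.47 ± 0.32. Rpl7 (97695_s_at) and Rpl8, which lies close to the catalytic centre, had all 4 arrays of the other populations below both TCRab CD8ab arrays. Their differences were −0.66 and −0.35 for Rpl7 and −0.47 and −0.43 for Rpl8, and neither was called.

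Rpl22 is the large subunit protein known to be needed for the development of alpha-beta T cells, while most gamma-delta T cells form without it. Its probe set 92857_at read 536 in TCRab CD8ab, 407 in TCRab CD8aa and 333 in TCRgd CD8aa in experiment 1, and 227, 225 and 196 in that order in experiment 2. Its other probe set, 92856_at, read 153 in TCRab CD8ab, 189 in TCRab CD8aa and 92.6 in TCRgd CD8aa in experiment 1, and 232, 121 and 169.6 in that order in experiment 2. TCRab CD8ab was the highest on 92857_at in both experiments, by very little in the second, and on 92856_at only in experiment 2. In TCRgd CD8aa the differences from TCRab CD8ab were −0.45 ± 0.37 and −0.59 ± 0.51, and those from TCRab CD8aa were −0.24 ± 0.37 and −0.27 ± 0.51. None was called, and the arrays of the populations overlapped in each. Rpl41, a very short and basic protein, had the opposite order to most bright members and read 33754 in TCRab CD8ab, 36891 in TCRab CD8aa and 33971 in TCRgd CD8aa in experiment 1, and 16072, 17059.8 and 21355 in that order in experiment 2. TCRab CD8ab was the lowest in both experiments, by 0.11 against TCRab CD8aa and 0.21 against TCRgd CD8aa (SE 0.30), and neither difference was called.

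Among small subunit members, Rps19, a protein needed to mature the small subunit's RNA and mutated in Diamond-Blackfan anaemia, had signals of 17045 in TCRab CD8ab, 10046 in TCRab CD8aa and 4803 in TCRgd CD8aa in experiment 1, and 6485, 3413 and 2347 in that order in experiment 2. TCRgd CD8aa was the lowest and TCRab CD8ab the highest in both experiments, and both TCRgd CD8aa arrays lay below both TCRab CD8ab arrays. In TCRgd CD8aa the difference was −1.65 ± 0.29, a 3.13-fold lower signal, with an adjusted p of 0.0495 with the block. It was −1.83 in experiment 1 and −1.47 in experiment 2. Without the block the SE was 0.77 and the adjusted p was 1.00. Over 11 other block settings the adjusted p ran from 0.0183 to 0.483, and 5 of the 11 called it. The call was lost without the TCRab CD8ab array of experiment 1 or 2 (adjusted p = 0.0615 and 0.122) and without the TCRgd CD8aa array of experiment 1 (adjusted p = 0.114). It was also lost with median scaling (adjusted p = 0.0655), with all probe sets kept (0.483) and with no intensity trend (0.352). Without the enterocyte-bearing array it was 0.0183, at a difference of −1.87. In TCRab CD8aa the difference was −0.84 ± 0.29, with an adjusted p of 0.384.

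Rpsa, which is also known as a laminin receptor precursor, read 9092 in TCRab CD8ab, 4866 in TCRab CD8aa and 5512 in TCRgd CD8aa in experiment 1, and 4274, 1905 and 1689.6 in that order in experiment 2. TCRab CD8ab was highest in each experiment, and the other populations lay close to each other. The differences were −1.03 ± 0.29 in TCRab CD8aa and −1.03 ± 0.29 in TCRgd CD8aa, 2.05-fold and 2.04-fold lower, with adjusted p of 0.243 and 0.292. Rps7, a protein of the small subunit also known to bind Mdm2, read 10749 in TCRab CD8ab, 6620.4 in TCRab CD8aa and 7552 in TCRgd CD8aa in experiment 1, and 4646, 1396 and 1342 in that order in experiment 2. TCRab CD8ab was again highest in each experiment and the others lay close to each other, but arrays of different experiments overlapped. Its differences were −1.22 ± 0.35 and −1.15 ± 0.35, with adjusted p of 0.252 and 0.344. With the block and 1 array left out, Rps7 and Rpl13a were called in some comparisons. Rps7 was called in TCRab CD8aa without the TCRab CD8ab array of experiment 1 (adjusted p = 0.0345) and without the TCRgd CD8aa array of experiment 2 (adjusted p = 0.0467). Rpl13a was called in TCRab CD8aa without the first or second TCRgd CD8aa array (adjusted p = 0.0311 and 0.0246) and with only the 4 arrays compared (adjusted p = 0.0286). In TCRgd CD8aa, Rps7 was called without the first TCRab CD8ab array (adjusted p = 0.0425) and Rpl13a without the first TCRgd CD8aa array (adjusted p = 0.0187). Where a compared population kept 1 array, that array is assumed to vary like the others. Without a TCRgd CD8aa array, TCRab CD8aa and TCRab CD8ab both kept 2 arrays for their own comparison. All of these fits leave fewer residual degrees of freedom than the block fit on all arrays. Each also called more of all probe sets in the same comparison. With only the 4 arrays compared, 169 probe sets were called in TCRab CD8aa, against 68 on all arrays.

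Rps10, a protein at the messenger RNA entry side that is marked with ubiquitin on stalled ribosomes, read 13918 in TCRab CD8ab, 9451 in TCRab CD8aa and 9934 in TCRgd CD8aa in experiment 1, and 13918, 5864 and 6461 in that order in experiment 2. The TCRab CD8ab arrays were nearly equal to each other and above the other 4. The differences were −0.90 ± 0.31 in TCRab CD8aa and −0.80 ± 0.31 in TCRgd CD8aa, with adjusted p of 0.373 and 0.516. Rps18, a protein of the small subunit head, read 26828 in TCRab CD8ab, 22261 in TCRab CD8aa and 22139 in TCRgd CD8aa in experiment 1, and 32697, 14313 and 20933 in that order in experiment 2. Its 2 TCRab CD8ab arrays were also above the other 4, with differences of −0.73 ± 0.33 and −0.46 ± 0.33, and neither was called (adjusted p = 0.502 and 0.760). Rps3, a protein at the channel where the messenger RNA enters, read 20557 in TCRab CD8ab, 18403 in TCRab CD8aa and 17236 in TCRgd CD8aa in experiment 1, and 41279, 20641 and 32198 in that order in experiment 2. TCRab CD8ab was highest in each experiment, with differences of −0.58 ± 0.33 and −0.31 ± 0.33. Rps4x, encoded on the X chromosome, read 28999 in TCRab CD8ab, 24264 in TCRab CD8aa and 23613 in TCRgd CD8aa in experiment 1, and 15813, 14693 and 18346 in that order in experiment 2. TCRab CD8ab was the highest in experiment 1 but not in experiment 2, where TCRgd CD8aa was, and the mean differences were −0.18 ± 0.30 and −0.041 ± 0.30.

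Among the 7 tested small subunit members with a mean signal under 500, TCRab CD8ab was the lowest population in experiment 1 for 6. It was the highest in experiment 2 for 6, and both held for 5. Among the 4 large subunit members as dim, it was the lowest in experiment 1 for 0 and the highest in experiment 2 for 4. These counts were not made over all probe sets. Rps14, a gene lost in a form of myelodysplastic syndrome, read 9.5 in TCRab CD8ab, 64.3 in TCRab CD8aa and 57.8 in TCRgd CD8aa in experiment 1, and 44.9, 8.4 and 29.8 in that order in experiment 2. TCRab CD8ab was thus the lowest in experiment 1 and the highest in experiment 2. Rps13, a protein that binds ribosomal RNA, read 55.9 in TCRab CD8ab, 64.6 in TCRab CD8aa and 62.3 in TCRgd CD8aa in experiment 1, and 201, 120.1 and 47.9 in that order in experiment 2. Only experiment 2 placed TCRab CD8ab at the top. Rps24, also mutated in Diamond-Blackfan anaemia, read on 93121_at 32.7 in TCRab CD8ab, 44.6 in TCRab CD8aa and 66.5 in TCRgd CD8aa in experiment 1, and 50.9, 43.2 and 95 in that order in experiment 2. TCRgd CD8aa was here the highest in both experiments, by 0.96 ± 0.66 over TCRab CD8ab (adjusted p = 0.746). Of the bright members not yet given, Rpl6 and Rpl19 (97483_at) differed from TCRab CD8ab by −0.45 and −0.68 in TCRab CD8aa and by −0.36 and −0.63 in TCRgd CD8aa. Rpl37a, a zinc-binding protein, differed by −0.28 and −0.47, and Rps27, another zinc-binding protein, by −0.40 and −0.14. Rps28 differed by −0.47, −0.45 and −0.63 on 100758_at, 98085_f_at and 98086_r_at in TCRab CD8aa and by −0.59, −0.062 and −0.43 in TCRgd CD8aa. Of these 98086_r_at was dim. On it and on 98085_f_at, TCRab CD8aa was above TCRab CD8ab in experiment 1 and below it in experiment 2. On 98086_r_at the same held for TCRgd CD8aa. Rps29 (98523_at), another zinc-binding protein, was the lowest in TCRab CD8ab in experiment 1 and the highest there in experiment 2, and differed over both by 0.052 and 0.034. Rps4l differed by −0.94 and −0.72 on 98149_s_at but by 0.091 and 0.25 on 98148_at, and Rpl39l by −0.37 and −1.13. None of these was called in either fit.

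The CD8aa populations, TCRgd CD8aa and TCRab CD8aa, did not differ in ribosomal protein signal in a common direction. The median difference was 0.067 over the tested members and 0.0015 over all probe sets. Of the 33 members 6 were lower in TCRgd CD8aa in both experiments (24.8% of all probe sets) and 7 were higher (23.9%), shares near the background. For 3 both arrays of TCRgd CD8aa were below both of TCRab CD8aa (6.64%), and for 2 above (7.78%). The sign of the median turned to −0.070 with quantile normalization and to −0.099 with median scaling, and it ran from −0.34 to 0.45 as each array was left out. The lowest and highest of these were without the TCRab CD8aa arrays of experiment 2 and experiment 1, and it was 0.34 without the second TCRgd CD8aa array. The difference between experiments enters these values, and within experiments 1 and 2 the median was 0.022 and 0.14. Median scaling moved the median of all probe sets there to −0.16. With the block limma called 0 members and 2 of all probe sets (0.012% in each direction). The unadjusted p was under 0.05 for 2 members, both lower in TCRgd CD8aa, against 0.831% of all probe sets.

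Those 2 members were Rps19, with a difference of −0.80 ± 0.29, and the dim probe set 161961_at of Rpl19, a protein of the bridges between the subunits. The latter read 27.3 in TCRab CD8ab, 56.8 in TCRab CD8aa and 16.6 in TCRgd CD8aa in experiment 1, and 197, 187 and 44.8 in that order in experiment 2. TCRgd CD8aa was lowest in each experiment, and close to the floor in the first. It differed from TCRab CD8aa by −1.92 ± 0.67, and the bright probe set of the same gene, 97483_at, differed by 0.059 ± 0.33. Rpl10a (161327_f_at) differed by −0.41 ± 0.31, and its other probe set differed by 0.058 ± 0.31. Rps24 was higher in TCRgd CD8aa by 0.86 ± 0.66 on 93121_at and by 0.52 ± 0.40 on 97696_r_at, whose gene is uncertain. The signals of 97696_r_at were 21441 in TCRab CD8ab, 24223 in TCRab CD8aa and 20125 in TCRgd CD8aa in experiment 1, and 51852, 26951 and 66545 in that order in experiment 2. Its TCRgd CD8aa array was the highest of the 3 in experiment 2 and the lowest in experiment 1, and the difference turned to −0.10 with quantile normalization. Adjusted p was 1.00 for every member in this comparison.

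More members passed the test between the experiments than between the populations. The members' signals were lower in experiment 2 by a median of −0.44, against −0.016 over all probe sets. limma, with the population as a factor, called 12 members lower and 3 higher in experiment 2 of the 33, where it called 20.4% of all probe sets lower and 13.7% higher. The 12 were 36.4% of the members. Each experiment was 1 pool, so these p-values measure how far the difference between experiments varied among the 3 populations. They do not measure the spread between pools. In all 3 populations 16 members were lower in experiment 2 (32.7% of all probe sets) and 5 were higher (28.4%). All 3 arrays of experiment 2 lay below all 3 of experiment 1 for 12 members (26.6% of all probe sets) and above for 4 (21.4%). The median was −0.69 in TCRab CD8aa and −0.62 in TCRgd CD8aa, and −0.00010 in TCRab CD8ab. Median scaling moved the median of all probe sets by 0.11, to 0.089, and that of the members to −0.29. Large subunit members had a median of −0.73, and small subunit members one of −0.29, which turned to 0.090 without the filter and to 0.10 and 0.20 without the first and second TCRab CD8aa array. It was −0.45 without either TCRab CD8ab array and −0.042 with median scaling. The median of all members was −0.12 without the filter and −0.73 with a filter at the 60th percentile. The 3′ to 5′ ratios given above differ between the same arrays, and their part in these values was not tested. Pool, sort, RNA preparation and these ratios go together with the experiment and cannot be told apart here.

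Rps7 had the largest fall between experiments, −1.98 ± 0.29 (adjusted p = 0.00122), from 6620.4 to 10749 on the arrays of experiment 1 to 1342 to 4646 on those of experiment 2. Rpl10a (100711_at) fell by 1.61 ± 0.25 (adjusted p = 0.00176), Rpsa by 1.38 ± 0.24 (adjusted p = 0.00258), Rps19 by 1.33 ± 0.24 and Rpl13a by 1.30 ± 0.26. Rps28, a small protein at the exit of the messenger RNA channel, read on 100758_at 6371 in TCRab CD8ab, 4735 in TCRab CD8aa and 4539 in TCRgd CD8aa in experiment 1, and 2354, 1641 and 1467 in that order in experiment 2. It fell by 1.53 ± 0.23 (adjusted p = 0.0013), with no overlap of the experiments. Rps4l, a copy of Rps4x, read on 98149_s_at 171 in TCRab CD8ab, 103 in TCRab CD8aa and 157 in TCRgd CD8aa in experiment 1, and 91.1, 41.3 and 36.5 in that order in experiment 2. It fell by 1.44 ± 0.46 (adjusted p = 0.0396). The others that fell were Rpl37a, Rpl22 (92857_at), Rpl41, Rplp0 and Rpl6, by 0.80 to 1.13. All but 2 of the 12, Rpl22 (92857_at) and Rps4l, had a mean signal above 500.

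The 3 members called higher in experiment 2 were 2 dim probe sets and the one of uncertain gene. Rpl19 (161961_at) rose by 2.00 ± 0.54 (adjusted p = 0.0203). Rpl39l, a copy of Rpl39 known mainly from testis, read 37.4 in TCRab CD8ab, 51.6 in TCRab CD8aa and 14.3 in TCRgd CD8aa in experiment 1, and 188, 81.7 and 96.7 in that order in experiment 2. It rose by 1.89 ± 0.58 (adjusted p = 0.0335), with the TCRgd CD8aa array of experiment 1 at the floor. Rps24 (97696_r_at) rose by 1.05 ± 0.33 (adjusted p = 0.0349). Rps4l (98148_at), which read 26.5 in TCRab CD8ab, 32.8 in TCRab CD8aa and 44.7 in TCRgd CD8aa in experiment 1, and 69.5, 63.7 and 58.6 in that order in experiment 2, and Rps13 differed by 0.91 ± 0.58 and 0.79 ± 0.54 and were not called. Without the filter limma called 1 member, Rps28 (100758_at), and 506 of 12422 probe sets. As each array was left out, 7 to 11 members were called lower and 0 to 4 higher. The total was 9 without either TCRgd CD8aa array, 7 were lower without the first TCRab CD8aa array, and 0 were higher without either TCRab CD8ab array.

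**Figure D3:**
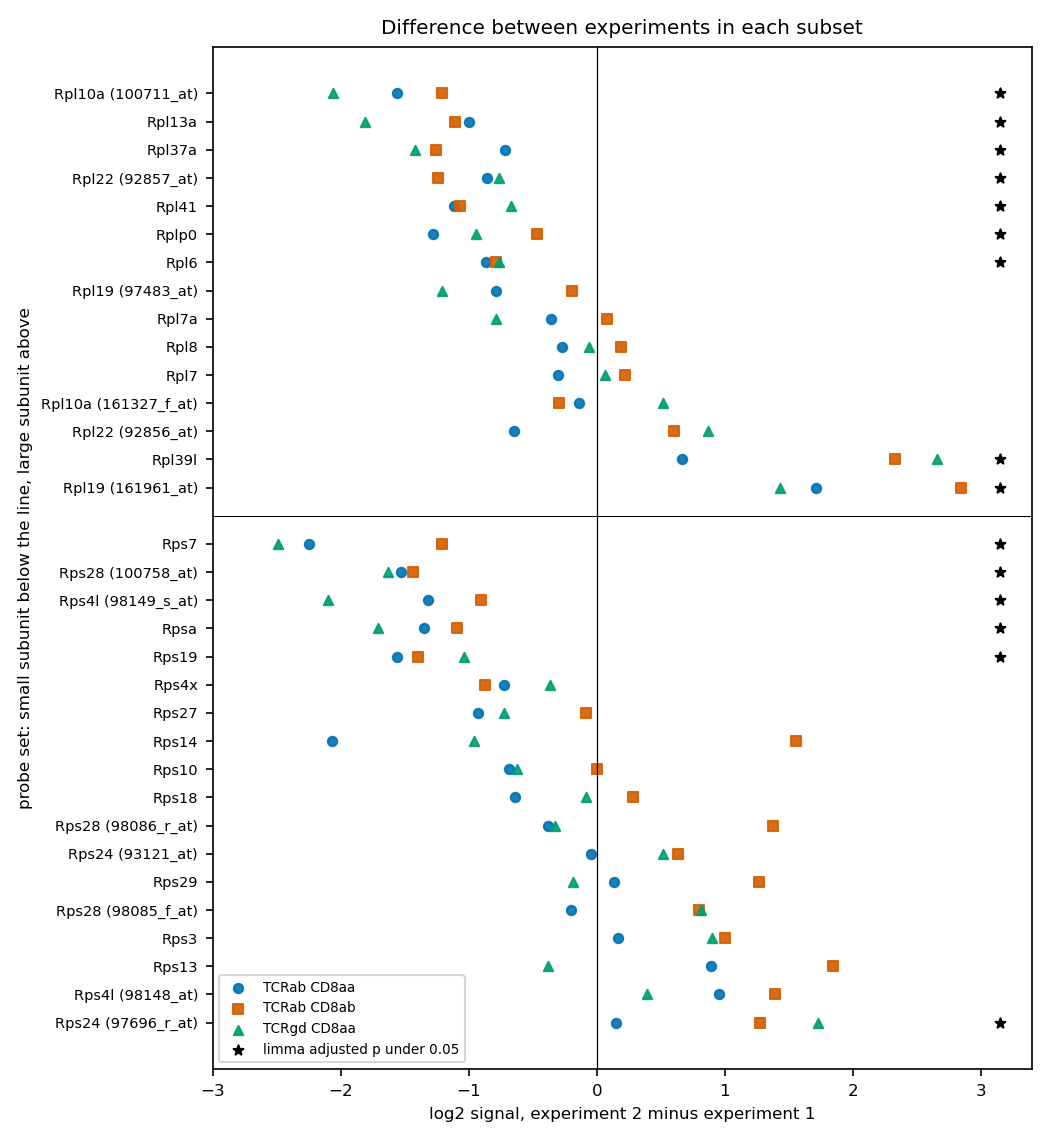
Log2 signal in experiment 2 minus experiment 1 for each tested member (rows), with 1 point per population, large subunit members above the line and small below, ordered by the mean within each; stars mark members called by limma (adjusted p under 0.05). The points of Rps7, at the top of the small subunit, lie between −2.49 and −1.21, and those of Rpl39l between 0.66 and 2.66.

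Probe sets of 1 gene often differed from each other between the experiments. For the 6 genes with several tested probe sets, the range between the highest and lowest was 0.68 to 2.73 log2 units in the difference between experiments. Rps28 gave −1.53, 0.47 and 0.22 on its 3 probe sets, Rpl10a gave −1.61 and 0.027, Rpl22 gave −0.95 and 0.28, Rpl19 gave −0.73 and 2.00, and Rps4l gave −1.44 and 0.91. In the difference between TCRab CD8aa and TCRab CD8ab the ranges were 0.11 to 1.18. They were widest for Rpl19 and Rps4l, whose second probe sets are dim. Rps28 gave −0.47, −0.45 and −0.63 over both experiments, but its probe sets differed by experiment. In experiments 1 and 2 they gave −0.43 and −0.52 on 100758_at, 0.048 and −0.95 on 98085_f_at, and 0.25 and −1.51 on the dim 98086_r_at. Of the 47 probe sets 32 carry the plain suffix and 15 a suffix by which Affymetrix marks probes that match several sequences or break its selection rules. The positions of the probes were not used, so no probe set could be placed along its message.

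Most other lists of protein synthesis genes, set by function, had medians between those of the members and of all probe sets. The median over 67 tested probe sets for mitochondrial ribosomal proteins was −0.23 in TCRab CD8aa and −0.25 in TCRgd CD8aa. It was −0.24 and −0.21 over 38 of translation factors, and −0.23 and −0.28 over 38 of ribosome assembly, the nucleolar proteins and RNA polymerase I. Growth control genes, from Myc and its partners to the mTOR pathway, gave −0.16 and −0.26 over 21. In experiments 1 and 2 this list gave 0.20 and −0.49 in TCRab CD8aa, and 0.072 and −0.50 in TCRgd CD8aa. The 34 tested probe sets with several symbols, a ribosomal protein among them, gave −0.47 and −0.31, close to the members. The ribosomal protein made as a ubiquitin-like fusion, Fau, gave −0.34 and −0.38 on 1 dim probe set, and Rpl7l1, a relative of Rpl7, gave −0.37 and −0.26 on 1. Both changed sign between experiments 1 and 2. Fau gave −1.13 and 0.46 in TCRab CD8aa, and −1.13 and 0.36 in TCRgd CD8aa. Rpl7l1 gave 0.16 and −0.91 in TCRab CD8aa, and 0.28 and −0.80 in TCRgd CD8aa. Of each of these lists 0 probe sets were called in either comparison by either fit. These medians describe the lists and were not tested against each other.

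By experiment, the mitochondrial list gave −0.21 and −0.23 in TCRab CD8aa where the large subunit members gave −0.39 and −0.92 and the small subunit members −0.066 and −0.95. In TCRgd CD8aa the mitochondrial list gave −0.072 and −0.46, the large subunit members −0.39 and −0.56, and the small subunit members −0.11 and −0.66. In experiment 1 the small subunit median was thus nearer to that of all probe sets (0.018 and 0.027) than the mitochondrial one in TCRab CD8aa but not in TCRgd CD8aa. Max, the partner of Myc, came closest to a call in the other lists and in the opposite direction. It read 2728 in TCRab CD8ab, 6869 in TCRab CD8aa and 6363 in TCRgd CD8aa in experiment 1, and 2404, 5654 and 5951 in that order in experiment 2. The difference was 1.28 ± 0.28 in TCRab CD8aa and 1.26 ± 0.28 in TCRgd CD8aa (limma with the block, adjusted p = 0.0926 and 0.128). Rpl5, Rpl11, Rpl3, Rpl4, Rpl10, Rplp1, Rplp2, Rps2, Rps6, Rps26 and Rps27a have no member probe set, so the particle around the smallest ribosomal RNA of the large subunit and the target of S6 kinase were not analysed here.

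**Figure D4:**
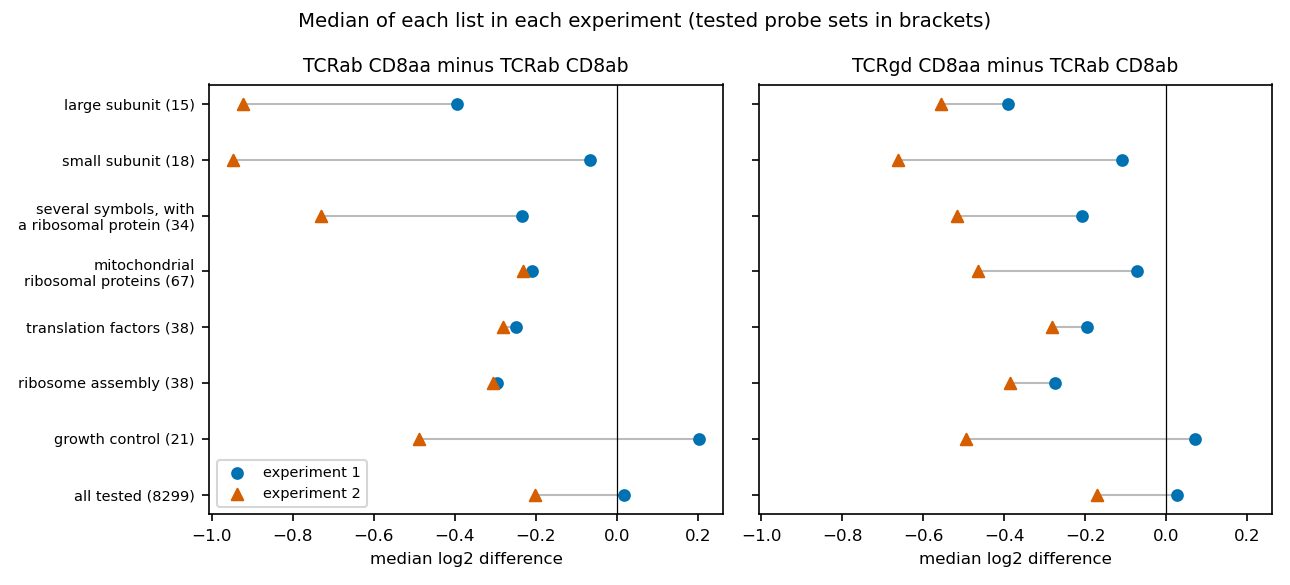
Median log2 difference from TCRab CD8ab over the tested probe sets of each list (number in brackets) in experiment 1 (circle) and experiment 2 (triangle), for TCRab CD8aa on the left and TCRgd CD8aa on the right. In experiment 2 both subunits lie at or below −0.56 in each panel, while all tested probe sets lie at −0.20 and −0.17.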

How the data were processed

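RNA of each sorted population was hybridised to an Affymetrix array. The authors deposited signal intensity in linear units from MAS5 (version not given in the sources used here), per the submitters' processing notes. Detection calls were not used. The 2% trimmed mean was 500.4 on every array, and arrays were scaled to a common one. A floor at the 20th percentile of all signals (15.3) was applied before taking log2. Probe sets with at least 2 arrays above the 40th percentile (signal 56.4) were kept, 8299 in all. Of the 12488 probe sets 66 were controls, 10833 had 1 symbol in the platform annotation, 396 several and 1193 no entry.

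Differences were tested with limma 3.58.1 in R 4.3.3 (eBayes with intensity trend, two-sided, Benjamini-Hochberg, adjusted p under 0.05), on all 6 arrays without an experiment term (3 residual degrees of freedom) and, as an alternative, with the experiment as a block (2). The replicate number pairs the arrays, since the 3 populations of an experiment came from 1 pool. Deviations from population means correlated across probe sets at 0.603 to 0.713. The code was tested on simulated data.

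Members and lists were chosen with earlier results of these data known. Signals on every array are given for the 4 members with the smallest p per comparison and fit, the 5 largest differences per direction between experiments, and members chosen for their role. Rpl41 was added after its values were seen. Alternatives were other scalings, floors, filters, spreads and thresholds, the mean per gene, and each array left out. The number of arrays limits the precision.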

Additional observations from a re-analysis of the deposited data

Results flagged for a closer look

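Of the 33 tested members 16 were lower in experiment 2 in all 3 populations and 5 were higher in all 3. The signs of the rest differed between populations. Flagged here are the 2 members with differences beyond 0.5 log2 units in opposite directions, and the small subunit median, whose signs also differed. Each difference comes from 1 array per population and experiment, and the difference between populations was not tested. On Rpl22 (92856_at), experiment 2 minus experiment 1 was 0.61 in TCRab CD8ab and 0.87 in TCRgd CD8aa but −0.65 in TCRab CD8aa, all on the log2 scale. On Rps14 it was 1.55 in TCRab CD8ab, against −2.07 in TCRab CD8aa and −0.96 in TCRgd CD8aa, with 2 of the 6 arrays at the floor. The median over the 18 tested small subunit members was 0.46 in TCRab CD8ab, −0.66 in TCRab CD8aa and −0.37 in TCRgd CD8aa.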

How the results depend on the processing

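With 2 arrays per population only large differences can be called. Without the block, 0 members were called between populations under every alternative run. With the replicate block 0, 1 and 0 members were called in TCRab CD8aa against TCRab CD8ab, TCRgd CD8aa against TCRab CD8ab, and TCRgd CD8aa against TCRab CD8aa. The block with only the arrays of the compared populations gave 1, 1 and 0, and leaving out each array gave 0 to 2, 0 to 1 and 0. Added after seeing the data, the block with quantile normalization called 1 member in TCRgd CD8aa against TCRab CD8ab, and with median scaling, no filter or no trend 0. The block changed no other call. TCRab CD8ab was highest for 16 to 20 members over the settings with all arrays.

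The members' median was negative against TCRab CD8ab under every alternative run. As each array was left out it ran from −0.73 to −0.33 in TCRab CD8aa and from −0.71 to −0.22 in TCRgd CD8aa, where the large subunit ran from −0.74 to −0.38 and the small from −0.55 to −0.11, with the smallest without the second TCRab CD8ab array. In TCRab CD8aa the large ran from −0.78 to −0.33 and the small from −0.82 to −0.26. Values with 1 array left out in this paragraph come from the fit without the experiment term. The difference between experiments enters them where a compared population keeps 1 array. Between the CD8aa populations quantile normalization gave −0.070, −0.11 for the large and −0.055 for the small subunit, and median scaling −0.099, −0.16 and 0.00056. Leaving out arrays gave −0.34 to 0.45, −0.45 to 0.39 and −0.22 to 0.49. Rps24 (97696_r_at) there turned to −0.10 with quantile normalization and ran from −0.34 to 1.38 as each array was left out, with the lowest without the second TCRgd CD8aa array.

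Between experiments the members called fell from 15 to 1 without the filter, which left 12422 probe sets to adjust over, and to 9 to 11 as each array was left out. The large subunit median was −0.43 without the filter. The causes were not tested. Of 401 values for named members under an alternative, 374 kept direction and call, 24 lost the call, 1 (Rps19 with the block) gained it and 2 turned sign. Fits that join the block with another change are not among the 401, and their calls of Rps19, Rps7 and Rpl13a are given with those genes.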
